A study of Mus musculus with 3 samples.

Results

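Group 2 innate lymphoid cells (ILC2) of mouse colon were described in 3 droplet single-cell libraries of sorted CD45+ cells, 1 from healthy colon and 2 from colon with neoplasia. They were chosen by measured UMI counts in each cell (UMI, unique molecular identifier, a count of captured transcripts), with this gate: at least 1 UMI of Gata3, at least 1 UMI of any of the 5 genes Il1rl1, Il17rb, Il13, Il5 and Calca, and 0 UMIs of the 6 genes Cd3e, Cd3d, Cd3g, Cd79a, Ms4a1 and Cpa3, which mark T cells, B cells and mast cells. The gate found 127 cells of the 16690 barcodes retained by the filters on detected genes and mitochondrial UMIs. Since Gata3 and the 5 signature genes chose the cells, their levels are given below as a description only.

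Library T1 represents low-grade and library T3 high-grade intraepithelial neoplasia of the colon. Both are from C57BL/6 mice, male per the labels, that received azoxymethane (AOM, a carcinogen) intraperitoneally at 12 mg/kg and then 3 cycles of 2.5% dextran sodium sulfate (DSS, an irritant of the gut lining). A cycle had 7 days with DSS, then 14 on plain water. Library C represents normal colon of healthy C57BL/6 mice, and its source label names neither agent. For each library the labels put the building of the model at an age of 6 to 8 weeks. Against C, what neoplasia did and what the AOM and DSS did cannot be told apart. Each group is 1 library and the number of mice behind it is not stated. No difference therefore has a replicate check, no test was made, and each 95% interval covers counting error only.

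ILC2 are lymphocytes without a rearranged antigen receptor that sit in barrier tissues. They respond to alarmins such as interleukin 33, which binds the ST2 receptor encoded by Il1rl1, and interleukin 25, which binds a receptor with the Il17rb chain. The transcription factor GATA3 is required for their development and for their type 2 cytokines, interleukins 4, 5 and 13, and they also release amphiregulin, a growth factor for epithelium. In the gut, ILC2 are known for responses to helminths, mucus production and tissue repair.

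Il4, Il13 and Il5 lie together in the type 2 cytokine locus on mouse chromosome 11. Windows around 1 listed start of each of these genes and of Il1rl1 are shown. The results turn on these genes, and GATA3, which the gate used, binds GATA motifs. The sequences are from RefSeq (GRCm38.p6), the build of the deposited counts being GRCm38, and run 5′ to 3′ on the gene's strand from 250 bases before to 50 bases after the annotated start. Capitals mark a GATA motif, which is the hexamer AGATAA, or the same with a final G (AGATAG), with T at its first base (TGATAA) or with both changes (TGATAG), searched on both strands. The windows lie at chr11:53617289-53617588 (minus strand) for Il4, chr11:53634653-53634952 (minus strand) for Il13, chr11:53720544-53720843 (plus strand) for Il5 and chr1:40429320-40429619 (plus strand) for Il1rl1.
Il4: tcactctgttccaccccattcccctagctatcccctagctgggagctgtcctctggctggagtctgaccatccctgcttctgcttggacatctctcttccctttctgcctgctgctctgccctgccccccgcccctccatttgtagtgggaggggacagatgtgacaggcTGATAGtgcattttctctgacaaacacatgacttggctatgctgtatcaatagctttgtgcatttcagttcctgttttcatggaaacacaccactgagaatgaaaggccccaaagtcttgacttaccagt
Il13: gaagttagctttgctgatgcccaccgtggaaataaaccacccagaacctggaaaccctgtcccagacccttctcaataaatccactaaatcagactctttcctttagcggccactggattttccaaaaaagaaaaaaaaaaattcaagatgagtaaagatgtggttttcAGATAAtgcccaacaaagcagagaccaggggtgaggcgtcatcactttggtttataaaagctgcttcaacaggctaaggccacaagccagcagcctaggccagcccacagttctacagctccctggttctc
Il5: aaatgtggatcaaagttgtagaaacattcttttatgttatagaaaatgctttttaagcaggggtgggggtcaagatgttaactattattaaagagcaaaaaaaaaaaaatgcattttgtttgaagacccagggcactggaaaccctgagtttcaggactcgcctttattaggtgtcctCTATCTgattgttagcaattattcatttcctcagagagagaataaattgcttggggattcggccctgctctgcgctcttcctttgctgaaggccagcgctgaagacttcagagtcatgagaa
Il1rl1: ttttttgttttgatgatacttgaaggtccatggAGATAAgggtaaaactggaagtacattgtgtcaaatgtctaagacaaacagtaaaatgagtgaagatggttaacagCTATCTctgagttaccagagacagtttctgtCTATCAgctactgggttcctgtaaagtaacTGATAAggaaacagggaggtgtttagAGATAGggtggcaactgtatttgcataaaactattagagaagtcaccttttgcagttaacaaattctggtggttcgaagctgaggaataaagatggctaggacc
Each of the cytokine windows shown held 1 hexamer, which began 80 bases before the start in Il4, 81 in Il13 and 72 in Il5. The Il1rl1 window held 5. A hexamer was found in 29.8% of the 32851 windows of the table and at least 5 in 0.0548% of them. The table lists a second start for Il4 and for Il1rl1, each with 1 hexamer in its window. That of Il4 lies upstream of the start shown, with its window at chr11:53618616-53618915 (minus strand). Its hexamer, TGATAA, begins after that start, at base 265 of the window. The Il4 window shown is thus that of the downstream start, and the upstream start of Il4 had no hexamer before it. The Il4 position given above therefore holds for the window shown only. A hexamer shortly before the start is not a trait of every listed start of the cytokine genes. A match is a run of letters, not a binding site.

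The gated cells also carried ILC2 transcripts that the gate did not use, though T-cell-like cells that met the rest of the rule often carried Rora and Klrg1 too (given below). Rora, the nuclear receptor that ILC2 development requires, was found in 42 of 45 gated cells of T1 and 71 of 76 of C. Il7r, the receptor for interleukin 7, was found in 38 of 45 and 72 of 76 cells, and Klrg1, an inhibitory receptor of mature gut ILC2, in 27 of 45 and 61 of 76. Arg1, the arginase that mouse ILC2 express, was found in 22 of 45 and 68 of 76. CD3-positive cells are the retained cells with a UMI of Cd3e, Cd3d or Cd3g and none of Cd79a or Ms4a1. In these, Arg1 was found in 14 of 1829 cells of T1 and 38 of 1874 of C. Their median depth was 6172 and 5733.5 UMIs per cell, against 7209 and 7337.5 in ILC2. Nmur1, the receptor for neuromedin U, had 3 UMIs in each library, and Ptgdr2, a prostaglandin receptor used to mark ILC2, had 1 UMI in T1 and 0 in C. These low counts leave both genes below what can be compared.

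Among genes found in at least 20% of the gated cells of both libraries, 15 were taken in order of their excess over CD3-positive cells of the same library, the smaller of the 2 excesses counting, and 13 of them were outside the gate. Stxbp6 came first, with 62.5 CPM (a gene's UMIs per 1e+06 of the summed UMIs of those cells) in ILC2 of T1 and 60.3 in ILC2 of C, against 0.264 and 0.552 in CD3-positive cells of the same libraries. Hs3st1, which encodes a heparan sulfate sulfotransferase, Ccdc184, Npnt, Hes1 (a Notch target), Rab27b, Slc6a13, Arg1, Eepd1, Ptgir (the prostacyclin receptor), Slc7a8 (an amino acid transporter), Pxdc1 and Plxdc2 followed outside the gate. The gate removed cells with a CD3 UMI, so these excesses describe the cells and test nothing.

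**Figure D1:**
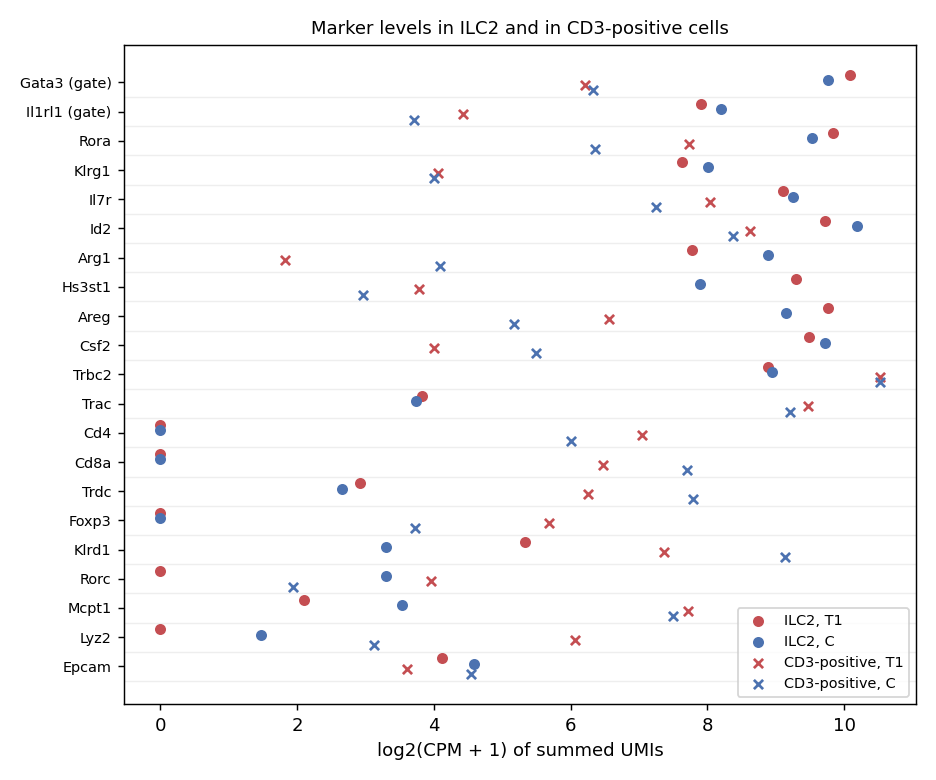
Summed level of marker genes, as log2(CPM + 1), in ILC2 (circles) and CD3-positive cells (crosses) of T1 (red) and C (blue); genes of the gate are labelled. Rora, Klrg1, Arg1 and Hs3st1 stand higher in ILC2 than in CD3-positive cells of both libraries, whereas Cd4, Cd8a and Foxp3 are at 0 in the ILC2 of T1 and C.

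Among markers of other cells, some were shared by nearly all gated cells and others were rare. Trac, the constant segment of the T-cell receptor alpha chain, was found in 4 of 45 ILC2 of T1 and 7 of 76 of C. Cd4, Cd8a, Cd8b1 and Foxp3 had 0 UMIs in both. Trbc1 or Trbc2, of the beta chain, was found in 42 of 45 and 70 of 76 cells. Summed over the 9 alpha-beta T-cell markers, 5 of which were at 0 in each library, the level was 963 CPM in T1 and 940 CPM in C, against 3728 and 3515 CPM in CD3-positive cells. The 9 NK and ILC1 markers summed to 187 CPM in T1 and 28.4 CPM in C, with 2 and 3 of them at 0. In each library 1 cell held every Ncr1 UMI, 11 in T1 and 4 in C. The markers of eosinophils were at 0 in both libraries, as were those of neutrophils. Of the 8 mononuclear phagocyte markers, Cst3 supplied 49 of the UMIs in T1 and 89 in C and Lyz2 was found in 0 and 1 cells. The 6 epithelial markers summed to 23.0 CPM in T1 and 30.2 CPM in C, the 8 ILC3 markers to 46.0 and 30.2 CPM, the 9 mast cell markers to 6.58 and 17.7 CPM and the 4 basophil markers to 9.86 and 1.77 CPM. For some genes, values are given below without ILC2 that had an NK marker (Ncr1, Klrb1c, Klrd1, Eomes or Tbx21). For some, values are given without ILC2 that had Trac, Cd4, Cd8a, Cd5 or Trdc. The part of the other cells in the values below was not tested. The 4 gamma-delta T-cell markers summed to 447 CPM in T1 and 328 CPM in C, against 194 and 652 CPM in CD3-positive cells. A UMI of at least 1 of them was found in 34 of 45 and 52 of 76 ILC2. The 10 B-cell markers summed to 746 CPM in T1 and 404 CPM in C, with a UMI in 42 of 45 and 71 of 76 ILC2, and the 5 plasma cell markers to 349 and 200.4 CPM, with 2 at 0 in each library for both lists. Of these, 1 B-cell marker and 0 plasma cell markers passed 2-fold. Igkc, the immunoglobulin kappa constant gene, stood at 625 CPM in ILC2 of T1 and 307 CPM in ILC2 of C, and at 1515 and 729 CPM in CD3-positive cells. In ILC2, 90 of the 190 Igkc UMIs of T1 were in 1 cell, and its log2 ratio was 1.03 with that cell and 0.16 without the cell with most UMIs of each library.

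The requirement of 0 Cd3g UMIs left out cells that resembled the gated ones. Among cells that met the rest of the rule and had a Cd3g UMI but none of Cd3d or Cd3e, there were 8 in T1 and 21 in C. Arg1 was found in 5 of the 8 cells of T1 and 20 of the 21 of C, and Trac in 2 and 1. Among those with a Cd3d or Cd3e UMI, 46 in T1 and 31 in C, Arg1 was found in 4 and 11 and Trac in 39 and 24. Foxp3, the factor of regulatory T cells, was found in 26 and 5. Rora was found in 36 and 25 of them and Klrg1 in 24 and 21, so these 2 genes alone do not set ILC2 apart from such cells. The grouping by chain was made after these values were seen. Near the edge of the gate, 5 ILC2 of T1 and 5 of C had exactly 1 Gata3 UMI. Outside it, Gata3 without any of the 5 signature genes was found in 22 cells of T1 and 33 of C, of which 1 and 7 had an Arg1 UMI, and a signature gene without Gata3 in 10 and 8 cells.

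ILC2 made up a smaller share of the CD45+ cells in both neoplastic libraries than in healthy colon. They were 76 of 6004 retained cells in C (1.27% [0.999, 1.58], exact Clopper-Pearson interval), 45 of 6143 in T1 (0.733% [0.535, 0.979]) and 6 of 4543 in T3 (0.132% [0.0485, 0.287]). The T1 share was 1.73-fold lower than that of C, a log2 ratio of −0.79 [−1.32, −0.26], with an interval from a normal approximation. The T3 share was 9.58-fold lower than that of C, a log2 ratio of −3.26 [−4.46, −2.06]. Over the same cells, NK and ILC1 cells were 19 of T1 and 57 of C, and cells that met the ILC2 rule but had a CD3 UMI were 54 (0.879%) of T1 and 52 (0.866%) of C. Since the gate chose the cells, these shares describe the libraries. A lower share can come from fewer ILC2 or from more of the other CD45+ cells, which shares cannot tell apart.

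The direction was the same for both neoplastic libraries under all 9 other settings of the gate or filter. The log2 ratio of T1 to C lay between −0.91, with Cd3g allowed, and −0.55, with each cell thinned to 1500 UMIs before the gate. The interval included 0 in the thinned setting, with 26 ILC2 of 5342 cells of T1 against 38 of 5330 of C, and when at least 2 of the 5 signature genes were required, with 24 against 37 ILC2. Depth differed for T3, where the retained cells had a median of 1803 UMIs against 4933 in C. After thinning, 4 of 2467 cells of T3 and 38 of 5330 of C were gated, a log2 ratio of −2.14 [−3.62, −0.65].

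**Figure D2:**
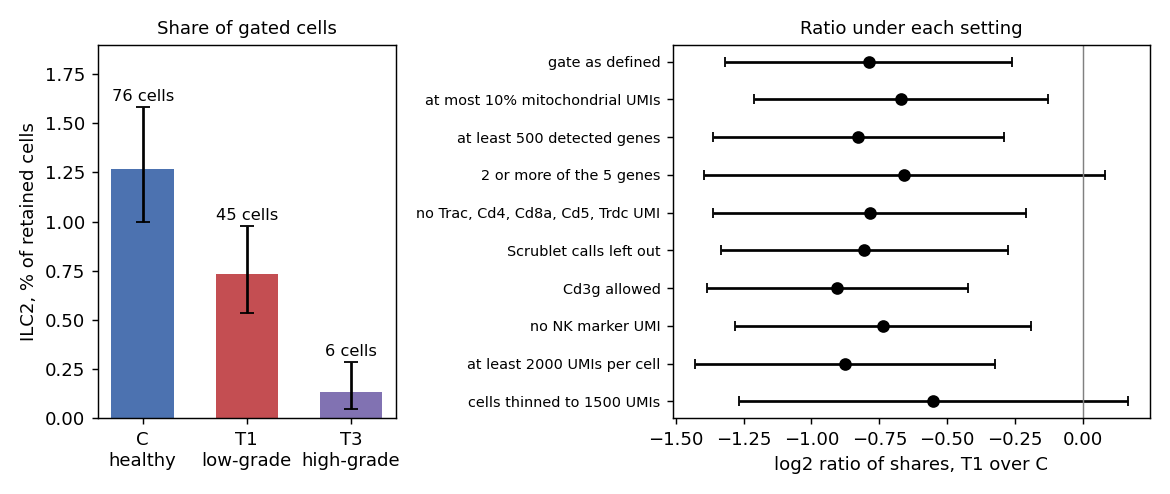
Left, ILC2 as a percentage of retained cells in C, T1 and T3, with exact 95% intervals and the number of ILC2 above each bar. Right, the log2 ratio of the T1 share to the C share under each gate or filter setting, with normal-approximation 95% intervals; all 10 points lie below 0, and 2 intervals cross it.

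The comparison of T1 with C asked which transcripts of ILC2 differ between low-grade neoplasia and healthy colon. UMIs were summed over the 45 ILC2 of T1 (304135 UMIs) and the 76 of C (563830 UMIs), and higher or lower means here a CPM at least 2-fold apart. Of 1947 genes with at least 50 UMIs over both libraries, 20 (1.03%) were higher and 36 (1.85%) lower in T1, together 56 (2.88%), and the median log2 ratio over the 1947 was 0.00 (lower and upper quartile −0.27 and 0.20). When every cell was given equal weight, 41 were higher and 44 lower, so 48.2% of the genes past 2-fold were higher, against 35.7% with summed UMIs. The rule for named genes, which also asked for detection in at least 10% of cells and a 2-fold difference without the cell with most UMIs of the gene in each library, was met by 14 higher and 30 lower genes, of which the first 12 of each are named here. Of these, 8 of 12 higher and 9 of 12 lower genes stayed past 2-fold under all 12 alternatives. The alternative without the cell with most UMIs of the gene was part of the rule, so every named gene passed it in advance. No ILC2 was called a doublet, so leaving out doublet calls could not change a gene's value. Setting the median log2 ratio to 0 could hardly do so, since it was 0.00 already.

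**Figure D3:**
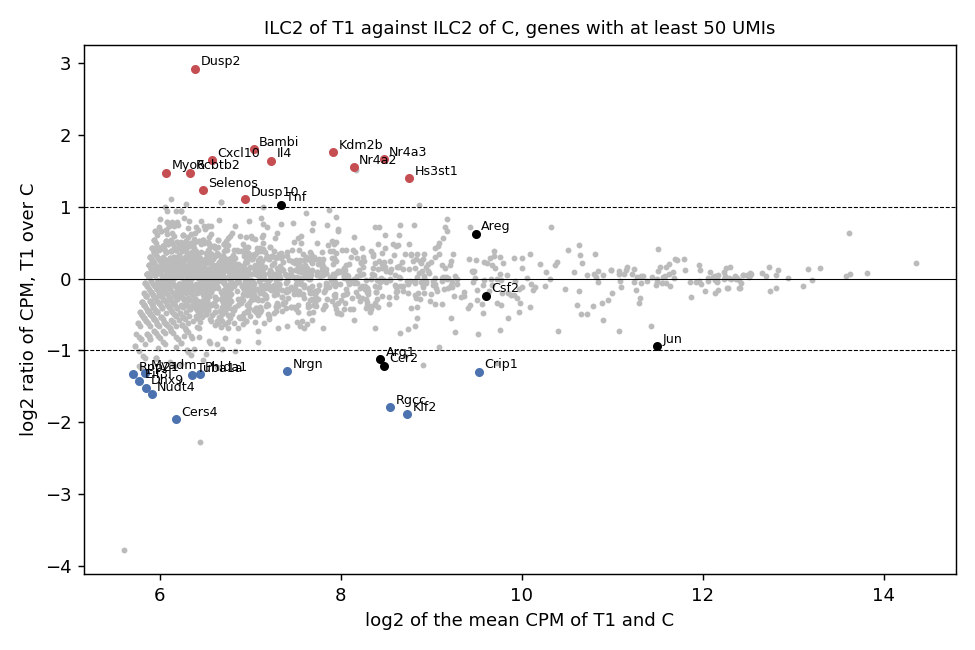
Log2 ratio of CPM in ILC2 of T1 over ILC2 of C against the log2 of their mean CPM, for genes with at least 50 UMIs; red, named higher; blue, named lower; black, members of gene lists; dashed lines, 2-fold. Most points lie between the dashed lines, and the lowest point, Cxcl1, rests on 51 UMIs in C, 46 of them in 1 cell.

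Among effector cytokines and mediators, Il4 was higher in T1 and the other abundant products differed less. Of the 21 list members outside the gate, 8 reached 50 UMIs and 2 of them were higher in T1 and 0 lower, against 1.03% higher and 1.85% lower over all 1947 genes. Their median log2 ratio was 0.47, against 0.00 over all genes. Il4 had 69 UMIs in 18 of 45 ILC2 of T1 and 41 UMIs in 25 of 76 ILC2 of C, which is 227 CPM [177, 287] and 72.7 CPM [52.2, 98.7] and a log2 ratio of 1.64 [1.06, 2.24]. The share of cells with Il4 differed less than the level, and the T1 cell with most held 16 UMIs against 4 in C. All T1 cells with at least 4 Il4 UMIs also had a UMI of Il13, a gene of the gate. The C cell with most Il4 had 0 Il13 UMIs. Whether the gate has a part in the Il4 ratio was not tested. In CD3-positive cells Il4 stood at 11.4 CPM in T1 and 10.2 CPM in C. In cells of the ILC2 rule with a CD3 UMI it stood at 136 CPM in T1 and 138 CPM in C.

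Areg, which encodes amphiregulin and is listed in the files under the symbol Mcub, was found in 31 of 45 ILC2 of T1 and 32 of 76 of C. Its level was 871 CPM [770, 983] in T1 and 564 CPM [504, 630] in C, a log2 ratio of 0.63 [0.39, 0.87], which is under 2-fold. After thinning each cell to 1000 UMIs, Areg was found in 13 of 43 and 17 of 76 cells, and the intervals of the shares, 17.2% to 46.1% in T1 and 13.6% to 33.4% in C, overlapped. In CD3-positive cells the log2 ratio of Areg was 1.42. Tnf, the tumour necrosis factor gene, stood at 217 CPM in T1 and 106 CPM in C. Its log2 ratio was 1.03 [0.50, 1.56], and 0.95, under 2-fold, without the cell with most UMIs of each library.

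Csf2, the gene of the myeloid growth factor GM-CSF, was found in 19 of 45 ILC2 of T1 and 33 of 76 of C, at 713 CPM and 844 CPM. Its log2 ratio was −0.24 [−0.48, −0.01], but 1.20 when at least 2 signature genes were required and 0.39 without cells that had an NK marker, so the direction depended on the gate. A few cells carried most of it: the cell with most held 83 of 217 UMIs in T1 and 184 of 476 in C. Ccl1, a ligand of the receptor CCR8, stood at 707 CPM in T1 and 445 CPM in C, and its log2 ratio of 0.67 was 0.06 with Cd3g-positive cells allowed and 1.71 without cells that had Trac, Cd4, Cd8a, Cd5 or Trdc. Il9 and Il10 had 0 UMIs in the ILC2 of both libraries.

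The cytokine genes of the gate were uneven from cell to cell. Il13 had 56 UMIs in 15 of 45 ILC2 of T1 and 21 UMIs in 10 of 76 of C, 184 and 37.2 CPM. Il5 had 39 UMIs in 8 of 45 cells of T1 and 29 in 19 of 76 of C. In T1, 1 cell held 27 of the 39 Il5 UMIs, and the same cell held 20 of the 56 Il13 UMIs, 7 Il4 UMIs and 46 Csf2 UMIs. Without the cell with most UMIs in each library, 36 Il13 UMIs remained in T1 and 12 in C, and 12 Il5 UMIs in T1 and 26 in C. At least 1 UMI of Il4, Il5 or Il13 was found in 25 of 45 ILC2 of T1 (55.6% [40.0, 70.4]) and 35 of 76 of C (46.1% [34.5, 57.9]). Calca, the gene of the neuropeptide CGRP, which ILC2 of barrier tissues can make, was found in 12 of 45 and 16 of 76 cells, at 135 and 151 CPM. Il1rl1 stood at 240 CPM in T1 and 293 CPM in C, Il17rb at 98.6 and 55.0 CPM, and Gata3 at 1082 and 867 CPM.

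**Figure D4:**
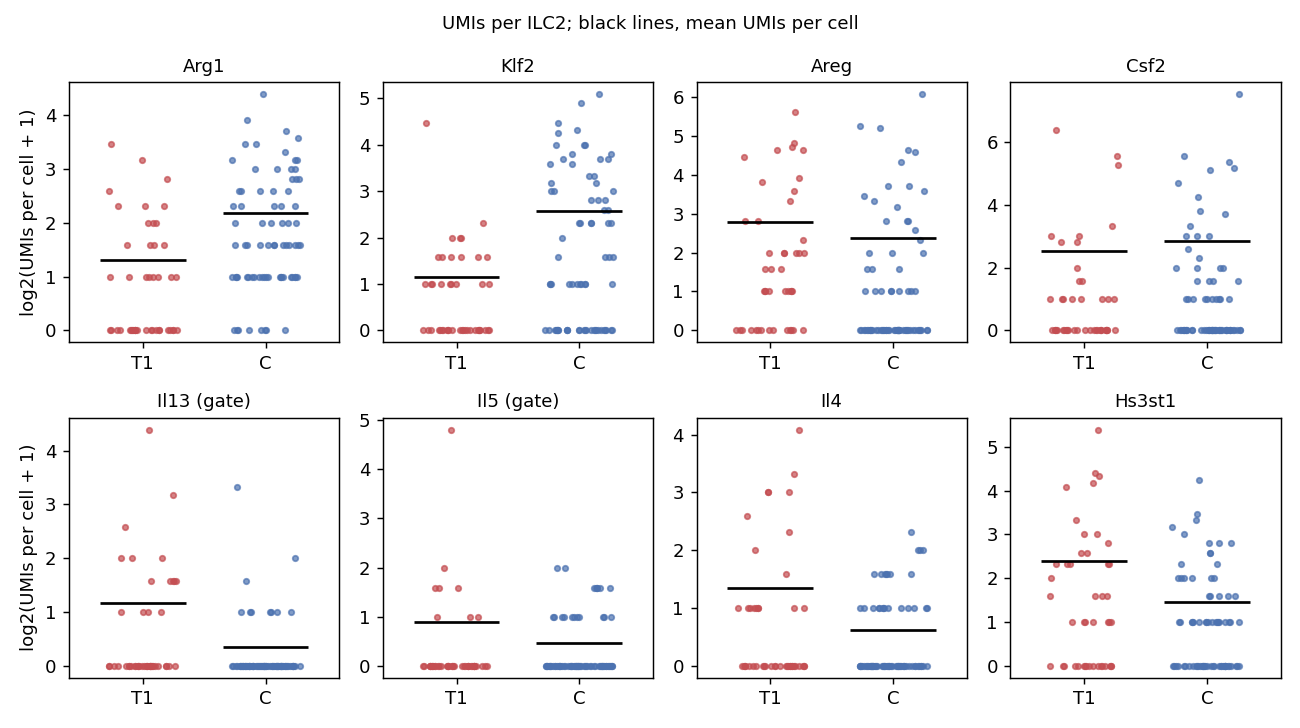
UMIs per ILC2, as log2(UMIs + 1), in T1 (red, 45 cells) and C (blue, 76 cells) for 8 genes; each point is a cell, the black line is the mean number of UMIs on the same scale, and Il13 and Il5 belong to the gate. Arg1 is at 0 in 23 cells of T1 and 8 of C, and for Il5 1 cell of T1, with 27 UMIs, stands far above the others.

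Arg1, whose product arginase-1 supports ILC2 metabolism and proliferation in mouse, was lower in T1. It was found in 22 of 45 ILC2 of T1 and 68 of 76 of C, the median cell holding 0 UMIs in T1 and 2 in C. The level was 217 CPM [168, 276] in T1 and 474 CPM [418, 534] in C, a log2 ratio of −1.13 [−1.54, −0.73]. Under the 12 alternatives it lay between −1.60, without cells that had Trac, Cd4, Cd8a, Cd5 or Trdc, and −1.001, without cells that had an NK marker. After thinning to 1000 UMIs, Arg1 was found in 8 of 43 cells of T1 (18.6% [8.4, 33.4]) and 26 of 76 of C (34.2% [23.7, 46.0]), and these intervals overlapped. The CD3-positive cells that met the rest of the rule had 64.1 CPM in T1 and 408 CPM in C. All CD3-positive cells together had 29 Arg1 UMIs in T1 and 174 in C, and these cells include the Cd3g-only ones described above.

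Hs3st1, which was among the leading genes of ILC2 in both libraries, was higher in T1. It was found in 28 of 45 ILC2 of T1 and 41 of 76 of C, at 625 CPM [539, 720] and 238 CPM [199, 281], a log2 ratio of 1.39 [1.07, 1.72]. The cell with most UMIs held 41 in T1 and 18 in C, and without these the ratio was 1.25. The log2 ratio of Hs3st1 was above 0 in other cells too, within 2-fold. It was 0.91 [0.49, 1.33] in CD3-positive cells, 0.87 [0.38, 1.37] in those that met the ILC2 rule and 0.69 [0.57, 0.81] in B cells. Whether a change shared by all cells has a part in the ILC2 value of Hs3st1 was not tested. Of the 23 ILC2 markers outside the gate, 14 reached 50 UMIs, and Hs3st1 and Il4 were higher, Arg1 lower and the other 11 within 2-fold, against 2.88% of all genes past 2-fold, with a median log2 ratio of −0.07. Rora stood at 914 CPM in T1 and 738 CPM in C (log2 ratio 0.31), Il7r at 552 and 607 CPM (−0.13), Klrg1 at 197 and 257 CPM (−0.38) and Id2, which all innate lymphoid cells require, at 842 and 1167 CPM (−0.47).

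For the receptors through which ILC2 are activated, counts past 2-fold were near the 2.88% over all genes and say nothing particular of them. None of the 12 alarmin and cytokine receptors outside the gate with 50 UMIs passed 2-fold in either direction, with a median log2 ratio of −0.01. Il2ra, the alpha chain of the interleukin 2 receptor, stood at 201 CPM in T1 and 200 CPM in C. None of the 10 neuropeptide, lipid and metabolite receptors with 50 UMIs did either, with a median of 0.09. Of these, Ramp1, part of the CGRP receptor, stood at 230 CPM in T1 and 284 CPM in C. The 8 checkpoint and costimulatory receptors with 50 UMIs also stayed within 2-fold. Icos had a log2 ratio of 0.48 in ILC2 and 1.94 in CD3-positive cells, at 283 against 202 CPM and 423 against 110 CPM in T1 against C.

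Of the 17 transcription factors of ILC2 with 50 UMIs, 1 was past 2-fold, against 2.88% of all genes: Klf2, a factor that promotes exit of lymphocytes from tissue. Klf2 was found in 20 of 45 ILC2 of T1 and 49 of 76 of C, at 181 CPM [136, 235] and 670 CPM [605, 742], a log2 ratio of −1.89 [−2.33, −1.48]. It was −2.45 without the cell with most UMIs of each library, which in T1 held 21 of 55, and −2.71 when at least 2 signature genes were required. Klf2 was lower in T1 in other cells too, at 658 against 1482 CPM in CD3-positive cells and 857 against 2909 CPM in B cells. Whether a change shared by all cells has a part in the ILC2 value was not tested.

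Genes of homing and residency included a second one past 2-fold, Ccr2, a chemokine receptor of cells that enter tissue from blood. Of the 8 members with 50 UMIs, 0 were higher and 2 lower, against 1.03% and 1.85% of all genes, with a median log2 ratio of −0.18. Ccr2 was found in 20 of 45 ILC2 of T1 and 52 of 76 of C, at 214 CPM [165, 272] and 497 CPM [440, 558], a log2 ratio of −1.22 [−1.63, −0.82]. Cxcr6 stood at 503 CPM in T1 and 362 CPM in C, Gpr183, a receptor for oxysterols, at 667 and 450 CPM, and Cd69, a marker of resident lymphocytes, at 582 and 770 CPM. These 3 were within 2-fold. Cxcr4 had 25 UMIs in T1 and 9 in C, below the minimum.

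Other named genes that were lower in T1 included Crip1 and Rgcc. Crip1, a small LIM-domain protein, was found in 36 of 45 ILC2 of T1 and 69 of 76 of C, at 427 CPM [357, 508] and 1048 CPM [965, 1136], a log2 ratio of −1.29 [−1.58, −1.02]. Rgcc, a regulator of the cell cycle, stood at 168 CPM in T1 and 580 CPM in C (−1.79 [−2.25, −1.36]), and Nrgn, a calmodulin-binding protein, at 98.6 and 241 CPM (−1.29). Cers4, a ceramide synthase, had 9 UMIs in 9 cells of T1 and 65 UMIs in 35 cells of C (−1.96 [−3.15, −0.95]). The counts were low for Nudt4, Dhx9, Eif3l, Tuba1a, Phlda1, Rpp21 and Myadm, with 9 to 15 UMIs in T1 and 42 to 70 in C and log2 ratios from −1.61 to −1.31. Of these, Dhx9 and Myadm were within 2-fold with equal weight per cell and Rpp21 without cells that had Trac, Cd4, Cd8a, Cd5 or Trdc, and Nudt4 was at −4.28 when at least 2 signature genes were required. A further 3 genes past 2-fold, chosen after their values were seen, were S100a6 (520 CPM in T1 and 1174 CPM in C), Lgals1 (289 and 667 CPM) and Ahnak (270 and 569 CPM).

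Among immediate early and AP-1 genes, which cells switch on within a short time of stimulation, members higher in T1 stood beside a list median below 0. Of the 23 members with 50 UMIs, 4 were higher (Dusp2, Nr4a2, Nr4a3 and Egr3) and 0 lower, against 1.03% higher and 1.85% lower over all genes, and their median log2 ratio was −0.19. Egr3 rested on 27 UMIs in T1 and 25 in C and was at 0.81 without the cell with most UMIs of each library. Nr4a3, an orphan nuclear receptor induced by activation, was found in 26 of 45 ILC2 of T1 and 31 of 76 of C, at 539 CPM [460, 628] and 170 CPM [138, 208], a log2 ratio of 1.66 [1.29, 2.04]. Its relative Nr4a2 was found in 23 and 22 cells, at 421 and 144 CPM (1.55 [1.14, 1.97]), and was at 0.95 when at least 2 signature genes were required. Nr4a1 stood at 1588 and 961 CPM, a log2 ratio of 0.72, within 2-fold. The AP-1 genes Jun, Fos and Fosb were within 2-fold too. Jun stood at 1970 CPM in T1 and 3788 CPM in C (−0.94), Fos at 1532 and 2286 CPM (−0.58) and Fosb at 1618 and 2678 CPM (−0.73). These genes also respond to tissue dissociation, and Jun had a log2 ratio of −1.58 and Fos of −1.24 in CD3-positive cells. Their part in the ILC2 values was not tested.

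Dusp2 and Dusp10 encode dual-specificity phosphatases that act on MAP kinases. Dusp2 had 45 UMIs in 8 of 45 ILC2 of T1 and 11 in 10 of 76 of C, a log2 ratio of 2.92 [1.95, 4.02]. Its level in T1 was 148 CPM in ILC2, 260 CPM in CD3-positive cells and 511 CPM in B cells. In C these levels were 19.5, 403 and 668 CPM. In T1, 27 of the 45 UMIs were in 1 cell, and the ratio was 1.89 without the cell with most UMIs of each library and 1.61 when at least 2 signature genes were required. Dusp10 stood at 168 CPM in T1 and 78.0 CPM in C (1.10), and was within 2-fold under 3 alternatives, with 0.53 the lowest.

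The other named genes higher in T1 were Kdm2b, Bambi, Cxcl10, Rcbtb2, Myo6 and Selenos. Kdm2b, a histone demethylase, was found in 23 of 45 ILC2 of T1 and 31 of 76 of C, at 372 CPM [306, 447] and 110 CPM [84.3, 141], a log2 ratio of 1.76 [1.30, 2.23]. Bambi, a pseudoreceptor that damps TGF-beta signalling, stood at 204 and 58.5 CPM, with 31 of its 62 UMIs of T1 in 1 cell. The 95% interval of its log2 ratio was 1.17 to 2.46, and the ratio without the cell with most UMIs of each library was 1.45. Cxcl10, an interferon-induced chemokine, was found in 10 of 45 and 4 of 76 cells, at 145 and 46.1 CPM (1.65). In each library 1 cell held much of it, 22 of 44 UMIs in T1 and 19 of 26 in C. That cell of T1 was the one with 27 Il5 UMIs. The ratio was 2.54 without the cell with most UMIs of each library and 2.76 with Cd3g-positive cells allowed. After thinning, Cxcl10 was found in 6 of 43 cells of T1 and 2 of 76 of C at 1000 UMIs. At 2000 UMIs it was found in 2 of 40 and 2 of 73. Rcbtb2 had 36 UMIs in T1 and 24 in C, and Myo6, an unconventional myosin, 30 and 20, each with a log2 ratio of 1.48. Myo6 was at 0.81 with Cd3g-positive cells allowed. Selenos had 38 and 30 UMIs (1.23) and was at 0.73 when at least 2 signature genes were required.

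The lists of metabolic and stress genes were small, and their counts are to be read beside the 2.88% of all genes past 2-fold. Of 4 genes of lipid and arginine metabolism with 50 UMIs, Arg1 was the 1 past 2-fold. Odc1, the ornithine decarboxylase that uses the product of arginase, stood at 740 CPM in T1 and 415 CPM in C (0.83), and Slc3a2, the heavy chain of amino acid transporters, at 562 and 335 CPM (0.75). Of 12 hypoxia and glycolysis genes, Pfkp and Hk1 were lower, on 10 and 11 UMIs in T1 and 44 and 41 in C, and the median log2 ratio was −0.13. None of the 10 heat shock genes with 50 UMIs passed 2-fold, with a median of 0.00, and Hspa1a had a log2 ratio of 0.40 in ILC2 and −1.06 in CD3-positive cells. None of the 8 cyclic AMP signalling genes (median −0.08), 6 interferon-stimulated genes (0.40), 3 proliferation genes (0.02) or the 1 MHC class II gene, Cd74 (0.57), passed it. Mki67 or Top2a, markers of dividing cells, was found in 4 of 45 ILC2 of T1 and 4 of 76 of C.

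The ILC2 values were set beside those of CD3-positive cells of the same libraries, of which 1829 were in T1 and 1874 in C. The 12 genes named as lower had a log2 ratio below 0 in both kinds of cell, but Klf2 alone passed 2-fold in CD3-positive cells (−1.17). Cells of the ILC2 rule with a CD3 UMI are part of the CD3-positive cells. Among them, Klf2 (−2.73), Rgcc (−1.36), Eif3l (−1.33), Myadm (−1.99) and Nrgn (−1.93) passed 2-fold. Nudt4 (0.80) and Dhx9 (0.41) were above 0 in those cells, and the other genes lay within 2-fold below 0. In B cells, Klf2 (−1.76), Phlda1 (−1.11) and Rgcc (−1.01) passed 2-fold, and Nudt4 was at 0.10. Of the 12 named as higher, 7 had a ratio above 0 in CD3-positive cells, and Nr4a3 alone passed 2-fold there (1.25). The other 5 had a ratio below 0 there, from −0.03 for Bambi and −0.16 for Rcbtb2 to −0.63 for Dusp2, −0.83 for Myo6 and −1.20 for Nr4a2. Of these 5, Nr4a2 was past 2-fold in both kinds of cell, at 421 CPM in T1 and 144 CPM in C in ILC2 (1.55) and 92.0 and 212 CPM in CD3-positive cells (−1.20). Among list members, Ccr2 was also past 2-fold in opposite directions, at a log2 ratio of −1.22 in ILC2 and 1.51 in CD3-positive cells, where it stood at 191 CPM in T1 and 67.1 CPM in C. Crem, a cyclic AMP response factor, had 0.77 in ILC2 and 2.23 in CD3-positive cells. The 5 genes named as higher but below 0 in CD3-positive cells were, all but Myo6, above 0 in cells of the ILC2 rule with a CD3 UMI. There Dusp2 stood at 2.21 [1.55, 2.94], Nr4a2 at 1.59, Bambi at 0.60, Rcbtb2 at 0.35 and Myo6 at −0.21. With 1 library per group these differences between cell types were not tested.

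**Figure D5:**
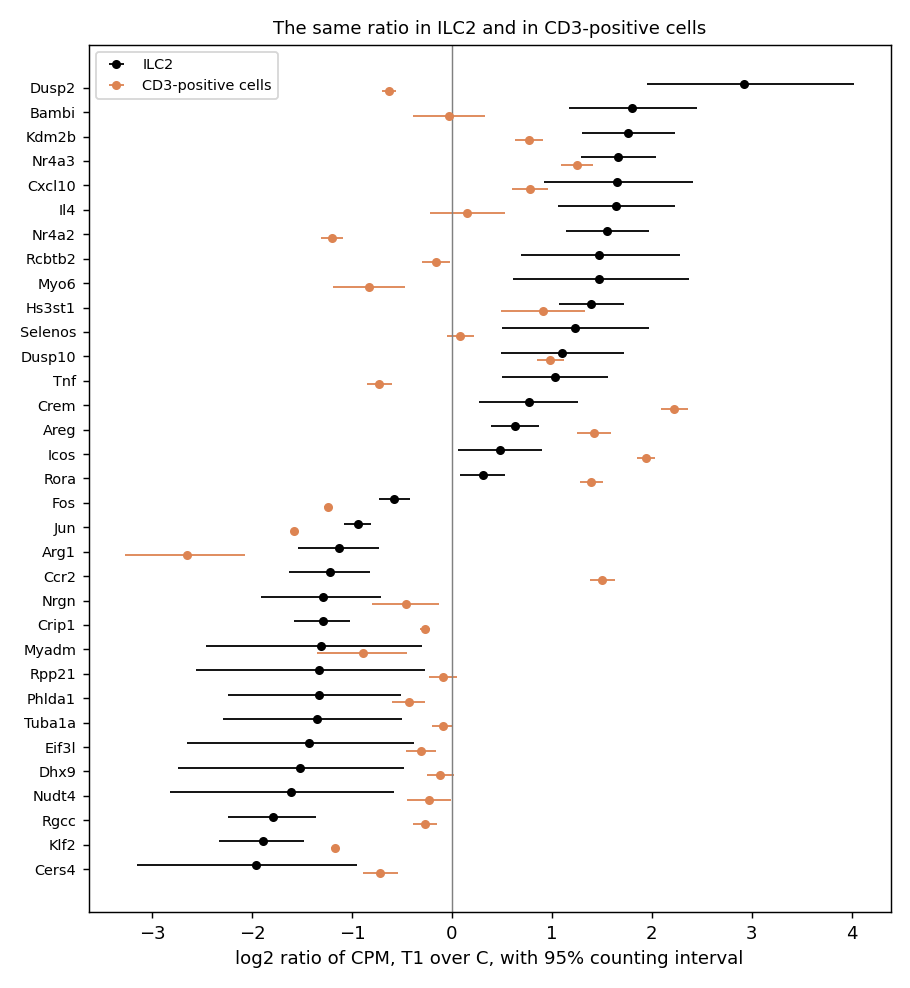
Log2 ratio of CPM in T1 over C for the 24 named genes and 9 list members, in ILC2 (black) and in CD3-positive cells (orange), with exact 95% counting intervals. Nr4a2 and Ccr2 lie on opposite sides of 0 in the 2 kinds of cell, and Klf2 lies below −1 in both.

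The 6 ILC2 of T3 held 32239 UMIs in all and allow values only. Rora was found in 6 of the 6 cells, Hs3st1 in 4, Arg1 in 3, Areg in 3 and Klrg1 in 3, and Csf2 and Il4 in 0. Arg1 had 17 UMIs, 10 of them in 1 cell, and Il13 had 7 UMIs in 1 cell. A Foxp3 UMI was found in 1 of the cells and Trac in 1, and Cd4 in 0.

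Across the series, the deposited libraries held 5779 to 8566 barcodes and 15898397 to 37208603 UMIs. T3 was the shallowest. Although the labels call the AOM and DSS mice male, Xist was found in 75.5% to 87.4% of retained cells, and the Y-linked genes examined had 0 or 1 UMI in a library. The libraries shared 35 to 39 barcodes in pairs, and no ILC2 barcode was among them. Doublets were called in 0.0488% of retained cells of T1 and 0.0220% of T3, too few for the caller to have worked there, against 1.15% of C, and no ILC2 was called in any library.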

How the data were processed

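CD45+ cells sorted from colon were made into 10x Genomics 3′ libraries, per the labels' protocols, 1 each for T1, T3 and C. The deposited values are UMI counts, whole numbers for every gene of a barcode, to which the authors applied no scaling. Per the submitters' processing notes, the tools were Seurat 3.1.4, Cell Ranger 3.1.0 and CASAVA 1.8, with the build GRCm38, and what each did is not said. No source used here gives counting settings or annotation, so overlapping genes and near-identical copies are uncertain. Every deposited barcode held at least 500 UMIs.

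Barcodes with fewer than 200 detected genes (292 in T1, 173 in T3 and 164 in C) or over 20% mitochondrial UMIs (2131, 1063 and 1735 of the rest) were left out and the gate applied. UMIs were summed per library and given as CPM, and log2 ratios have exact conditional 95% intervals (scipy 1.17.1). Shares have Clopper-Pearson intervals. Shares of cells with a UMI were also computed after thinning each cell to 1000 UMIs. Scrublet ran in scanpy 1.11.5, and its calls were left out only as an alternative. The intervals of the log2 ratios were checked on simulated sums, drawn without the clumping of UMIs in single cells. The ratios were computed anew for that check. Gene IDs were matched to symbols for 30766 of 30905 genes, under which Areg stands as Mcub in the files.

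Named genes were up to 12 per direction by absolute log2 ratio, with at least 50 UMIs over T1 and C, at least 2-fold apart also without the cell with most UMIs of each library, found in at least 10% of the ILC2 of the higher library, and with a CPM of at least 20% of that in CD3-positive, B, mast, mononuclear phagocyte and epithelial cells. Gate, mitochondrial, ribosomal protein, immunoglobulin, T-cell receptor, haemoglobin and predicted genes could not be named, and members of the 28 gene lists could. The gated cells, the lists and the rule were chosen with earlier results of these data known. UMIs come from amplified libraries, and with 1 library per group no test, standard error or p-value was computed.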

Additional observations from a re-analysis of the deposited data

Results flagged for a closer look

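Nr4a2 and Ccr2 had log2 ratios on opposite sides of 0 in ILC2 and in CD3-positive cells of the same libraries. The log2 ratio of T1 to C of Nr4a2 was 1.55 in ILC2, from 128 UMIs in T1 and 81 in C, and −1.20 in CD3-positive cells, from 1045 and 2300 UMIs. That of Ccr2 was −1.22 in ILC2, from 65 UMIs in T1 and 280 in C, and 1.51 in CD3-positive cells, from 2165 and 730 UMIs. Without the cell with most UMIs of each library the ILC2 values were 1.58 and −1.24. In other cells the log2 ratio of Nr4a2 was above 0 too. Cells of the ILC2 rule with a CD3 UMI are part of the CD3-positive cells. They had 270 CPM of Nr4a2 in T1 and 89.3 CPM in C (1.59 [1.03, 2.19]). Its log2 ratio was 0.99 in NK and ILC1 cells and 0.42 in B cells. The differences between the cell types were not tested.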

How the results depend on the processing

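No paired analysis was possible because each group has 1 library. The share of ILC2 was lower in both neoplastic libraries than in C under each of the 9 alternatives, with a log2 ratio from −0.91 to −0.55 in T1 and from −3.60 to −2.14 in T3. The counts of genes past 2-fold, 20 higher and 36 lower in T1, depended most on the minimum number of UMIs. There were 123 higher and 258 lower with a minimum of 20 UMIs, and 8 higher and 10 lower with a minimum of 100. Equal weight per cell gave 41 higher, the requirement of at least 2 signature genes gave 12 higher, and leaving out the cell with most UMIs of each gene in each library gave 55 lower. That last setting also turned Il5 from 1.32 to −0.22, since 27 of its 39 UMIs in T1 were in 1 cell. In the other cases the cause was not tested. Of 748 values under an alternative, 700 stayed within the counting interval, within 1 SD over members for a list's median, or within 1.5 times for a count of genes, 47 moved further and 1, Il5, was past 2-fold and turned sign. Values within 2-fold that turned sign were not counted as reversed, and among them Csf2, at −0.24, was at 1.20 with at least 2 signature genes. The 700 include gene values with doublet calls left out, which could not move because no ILC2 was called. Allowing Cd3g, excluding cells with an NK marker, and requiring 2000 UMIs per cell were alternatives chosen after seeing the data. With 304135 UMIs in the ILC2 of T1, genes with few UMIs, such as Nmur1, could not be compared.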

Other observations

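Hba-a1, a haemoglobin gene, had 1 UMI in 1 of 45 ILC2 of T1 and 18 UMIs in 12 of 76 ILC2 of C, and was found in 2 of the 6 ILC2 of T3. CD3-positive cells of C had 1.29 CPM, against 31.9 CPM in ILC2 of C. Among the 21 cells of C that met the rest of the gate with Cd3g but no Cd3d or Cd3e UMI, 6 had an Hba-a1 UMI.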
